A study of Mus musculus with 6 samples.

Results

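A group of 9 lysosomal protease genes, of 32429 gene symbols in the count tables, was followed by name through CD45-positive cells of the mouse hippocampus. They were Ctss, Ctsl, Ctsd, Ctsb, Ctsa, Ctsh, Ctsc and Ctsz, which encode cathepsins, and Lgmn, which encodes legumain. Their level was read in each library, deposited cell type and deposited cluster as CPM, the count of UMIs scaled to a common total, where a UMI marks 1 captured RNA molecule, and as the share of cells with a UMI. A UMI counts a molecule once whatever its length, so CPM was not divided by transcript length.

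Lysosomal proteases cut proteins that reach the lysosome by endocytosis, phagocytosis or autophagy, and most are made as inactive precursors that mature in the acid of that compartment. Cathepsins B, C, H, L, S and Z are cysteine proteases, cathepsin D is an aspartic protease, cathepsin A is a serine carboxypeptidase, and legumain cuts after asparagine. Microglia, the resident macrophages of the brain, are rich in lysosomes and use these enzymes to degrade what they engulf and to prepare antigen.

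The study sorted live CD45-positive cells from hippocampi freed of meninges and choroid plexus, and sequenced the 5′ ends of their RNA cell by cell in droplets. All animals carried the strain label BC57BL/6, and no age, sex or number of animals pooled is in the labels used here. One library was non-shocked. In the acute paradigm, mice received 180 inescapable foot shocks at a current of 0.3 mA and were then tested for escape in 30 trials, each 24 s long, which gave an acute helpless and an acute non-helpless library. In the chronic paradigm, mice went through the acute procedure and were retested each week for 3 weeks, which gave chronic non-helpless, chronic non-recovered and chronic recovered libraries.

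Each group was 1 library, so no spread between animals could be measured, no test was made between groups, and every interval here is a 95% interval for counting error only. The 6 libraries held 3005 cells and 14097425 UMIs, of which 2721 cells and 11014370 UMIs were labelled microglia. Chronic non-recovered had the fewest, 99 microglia and 303934 microglial UMIs, against 372 to 630 microglia and 1726795 to 2711534 UMIs elsewhere. The deposited batch number was 1 for acute helpless, 2 for acute non-helpless and 3 for the chronic libraries, and non-shocked cells were split between batch 2 (123 microglia, median 905 UMIs) and batch 3 (429 microglia, median 3906 UMIs). Paired libraries shared at most 1 cell barcode. All 9 microglial markers had UMIs in the microglia of every library, with a summed level of 34432 CPM in chronic non-recovered and 39061 to 45255 CPM elsewhere. Summed neutrophil markers reached 21350 CPM in chronic non-recovered microglia and 977 CPM in chronic non-helpless microglia, against at most 9.07 CPM elsewhere. A single chronic non-recovered barcode with 17107 UMIs held 6451 of the neutrophil UMIs and 5.63% of that library's microglial UMIs. Values of the 9 genes without it are given where they matter, and the further gene lists were read with it only.

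Promoter windows are shown because the genes below varied together in part within microglia. RefSeq windows of 300 bases, from 250 before to 50 after an annotated gene start in build GRCm38.p6, were found for 7 of the 9 genes and not for Ctsb and Ctsh. The motif CACGTG, which reads the same on both strands, is the core of the sequence bound by TFEB and related transcription factors of lysosomal genes. It was present in windows of 4 of the 7 genes, Ctsd, Ctsa, Lgmn and Ctsl. Over all genes it was in 7.15% of 32851 windows and in windows of 2187 of 27025 genes. The longer form TCACGTGA, which contains it, was found in windows of Ctsd and Ctsa, in 0.974% of all windows and in windows of 304 of 27025 genes. No CACGTG was found in the windows of Ctss, Ctsz and Ctsc, or in the window of the upstream annotated start of Ctsa and of Lgmn. The Ctsl window, with its match, lies wholly inside the gene as placed in GENCODE M21, where the gene starts at 64370890 on the minus strand. The downstream windows of Ctsa and of Lgmn, with their matches, also lie wholly inside their genes as placed there. A match is a run of letters and was not tested for binding. Capitals mark CACGTG, and the Ctss window is printed as one without it.
Ctsd, chr7:142387778-142388077, minus strand: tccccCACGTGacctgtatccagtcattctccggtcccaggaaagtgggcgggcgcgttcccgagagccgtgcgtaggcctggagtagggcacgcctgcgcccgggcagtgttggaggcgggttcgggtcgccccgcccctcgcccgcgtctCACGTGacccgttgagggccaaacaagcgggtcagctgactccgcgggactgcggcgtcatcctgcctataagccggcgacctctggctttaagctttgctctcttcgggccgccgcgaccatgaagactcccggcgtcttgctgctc
Ctsa, downstream start, chr2:164833523-164833822, plus strand: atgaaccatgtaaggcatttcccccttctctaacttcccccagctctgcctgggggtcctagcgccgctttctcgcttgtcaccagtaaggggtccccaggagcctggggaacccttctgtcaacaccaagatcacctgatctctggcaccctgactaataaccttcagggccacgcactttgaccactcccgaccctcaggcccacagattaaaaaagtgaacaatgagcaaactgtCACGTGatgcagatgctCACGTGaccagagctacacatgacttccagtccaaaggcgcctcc
Lgmn, downstream start, chr12:102439043-102439342, minus strand: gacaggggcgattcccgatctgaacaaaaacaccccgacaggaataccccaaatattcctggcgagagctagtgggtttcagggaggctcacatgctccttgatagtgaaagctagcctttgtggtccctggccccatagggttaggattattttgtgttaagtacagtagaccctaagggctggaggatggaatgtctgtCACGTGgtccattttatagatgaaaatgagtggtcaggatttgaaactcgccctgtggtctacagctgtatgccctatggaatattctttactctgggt
Ctsl, chr13:64370471-64370770, minus strand: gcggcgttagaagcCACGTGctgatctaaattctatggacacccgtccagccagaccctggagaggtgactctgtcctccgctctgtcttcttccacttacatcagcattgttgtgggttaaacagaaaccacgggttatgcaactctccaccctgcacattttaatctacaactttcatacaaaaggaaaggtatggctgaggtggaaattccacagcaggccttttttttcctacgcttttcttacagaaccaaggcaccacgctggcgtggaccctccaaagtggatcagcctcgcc
Ctss, chr3:95526536-95526835, plus strand: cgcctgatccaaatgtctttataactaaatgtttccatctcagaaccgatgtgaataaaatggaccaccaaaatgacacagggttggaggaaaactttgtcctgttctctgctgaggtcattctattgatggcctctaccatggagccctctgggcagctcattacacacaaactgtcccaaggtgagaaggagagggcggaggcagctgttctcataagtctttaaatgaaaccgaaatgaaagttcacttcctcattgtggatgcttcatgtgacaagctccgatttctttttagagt

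Together the 9 genes held 2.88% of all microglial UMIs, from 2.27% in chronic non-recovered to 3.13% in acute helpless microglia. Among 13451 genes read under both annotations used in the series, pooled over libraries, Ctsd ranked 5, Ctss 13, Lgmn 16, Ctsb 29, Ctsz 45, Ctsl 56, Ctsa 67, Ctsh 134 and Ctsc 222 by microglial level. Levels between genes spanned a wider range than levels of any one gene between libraries.

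The endopeptidases cut inside a protein chain. Ctsd encodes cathepsin D, the main aspartic protease of the lysosome, and lies at chr7:142375911-142388038 on the minus strand in GENCODE M21 (GRCm38). Its microglial level was 8925 CPM in non-shocked, 10612 in acute helpless, 8725 in acute non-helpless, 9656 in chronic non-helpless, 7739 in chronic non-recovered and 9281 in chronic recovered cells. Acute helpless was highest and chronic non-recovered lowest, and only 1 of the 5 pairs of neighbours in that order had overlapping intervals. Between 97.6% and 100% of microglia had a Ctsd UMI.

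Ctss (chr3:95526786-95556403, plus strand) encodes cathepsin S, which stays active at neutral pH and trims the invariant chain of MHC class II in antigen-presenting cells. Its level was 5439 CPM in non-shocked, 5960 in acute helpless, 6051 in acute non-helpless, 5602 in chronic non-helpless, 4129 in chronic non-recovered and 5705 in chronic recovered microglia. The interval of chronic non-recovered, 3904 to 4364 CPM, lay below those of the other 5 libraries, which were close together.

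Lgmn (chr12:102394084-102439813, minus strand) encodes legumain, which also cuts several cathepsins into their mature chains. It stood at 5319 CPM in non-shocked, 5676 in acute helpless, 4835 in acute non-helpless, 5357 in chronic non-helpless, 4603 in chronic non-recovered and 5400 in chronic recovered microglia. The 2 lowest libraries, chronic non-recovered and acute non-helpless, had overlapping intervals.

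Ctsb (chr14:63122462-63145923, plus strand) encodes cathepsin B, which cuts inside chains and also removes dipeptides from their carboxyl end. Its level was 2471 CPM in non-shocked, 2760 in acute helpless, 2270 in acute non-helpless, 2555 in chronic non-helpless, 2142 in chronic non-recovered and 2358 in chronic recovered microglia. Of its 5 pairs of neighbours, 4 had overlapping intervals.

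Ctsl (chr13:64359337-64370890, minus strand) encodes cathepsin L, a broad endopeptidase. It stood at 1582 CPM in non-shocked, 1540 in acute helpless, 1294 in acute non-helpless, 1422 in chronic non-helpless, 869 in chronic non-recovered and 1443 in chronic recovered microglia. Chronic non-recovered, at 767 to 980 CPM, lay clear of all others, and this was the widest spread of the 9 genes, 1.82-fold from highest to lowest.

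The exopeptidases trim chain ends. Ctsz (chr2:174427493-174439039, minus strand) encodes the carboxypeptidase cathepsin Z. Its level was 1645 CPM in non-shocked, 1810 in acute helpless, 1597 in acute non-helpless, 1682 in chronic non-helpless, 1040 in chronic non-recovered and 1639 in chronic recovered microglia. As for Ctsl, the interval of chronic non-recovered, 928 to 1161 CPM, did not reach any other library.

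Ctsa (chr2:164832873-164841032, plus strand) encodes cathepsin A, a carboxypeptidase that also protects lysosomal galactosidase and neuraminidase. It stood at 1329 CPM in non-shocked, 1427 in acute helpless, 1096 in acute non-helpless, 1288 in chronic non-helpless, 1109 in chronic non-recovered and 1249 in chronic recovered microglia. It was the only one of the 9 whose lowest library was not chronic non-recovered, and the intervals of its 2 lowest libraries overlapped.

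Ctsh (chr9:90054152-90076089, plus strand) encodes the aminopeptidase cathepsin H. Its level was 757 CPM in non-shocked, 944 in acute helpless, 877 in acute non-helpless, 818 in chronic non-helpless, 619 in chronic non-recovered and 800 in chronic recovered microglia. Ctsc (chr7:88278085-88310888, plus strand) encodes cathepsin C, a dipeptidyl peptidase that activates granzymes and the serine proteases of neutrophils. It stood at 645 CPM in non-shocked, 530 in acute helpless, 602 in acute non-helpless, 600 in chronic non-helpless, 474 in chronic non-recovered and 603 in chronic recovered microglia. For both, 4 of the 5 pairs of neighbours overlapped, so most libraries could not be ordered. Of the granule substrates of cathepsin C on a list of 6 (Gzma, Gzmb, Gzmk, Elane, Prtn3 and Mpo), 0 reached 20 CPM in microglia.

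**Figure D1:**
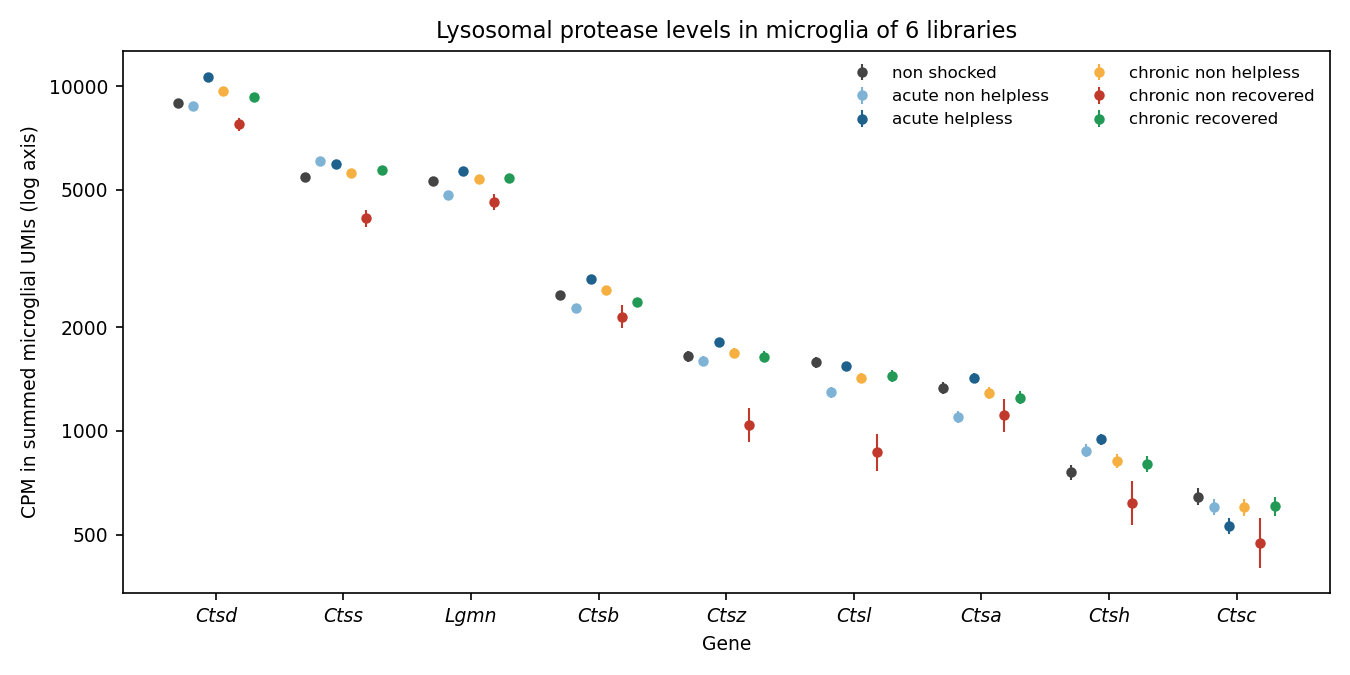
CPM of the 9 proteases in summed microglial UMIs of each library, on a log axis; points are libraries and bars 95% intervals for counting error. Ctsd, at 7739 to 10612 CPM, tops every library, and the chronic non-recovered points lie lowest for all genes but Ctsa, where acute non-helpless is lower (1096 against 1109 CPM).

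Leaving out chronic non-recovered, the highest and lowest of the other 5 libraries lay 1.11-fold apart for Ctss, 1.13-fold for Ctsz, 1.17-fold for Lgmn, 1.22-fold for Ctsd, Ctsb, Ctsc and Ctsl, 1.25-fold for Ctsh and 1.30-fold for Ctsa. The share of cells with a UMI depends on depth, so cells were also thinned to 1000 UMIs each, leaving out the 0 to 92 microglia of each library with fewer. Thinned Ctsd was found in 97.7 to 99.8% and Lgmn in 97.5 to 99.5% of microglia. Unthinned, a Ctsd UMI was found in 99.1% and an Lgmn UMI in 98.9% of all microglia (median 3987 UMIs), against 31 and 7 of 43 T cells (median 5190 UMIs) left after barcodes with microglial marker UMIs were set aside at a 0.5% limit. For Ctsc the thinned share was 33.0% in chronic non-recovered and 39.7 to 45.4% elsewhere, and the unthinned share 54.5% against 70.8 to 87.9%.

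The first comparison asked whether microglia of mice that failed to escape in the acute test differed from those of mice that escaped. In acute helpless against acute non-helpless microglia, 7 of the 9 genes were higher and 0 passed 1.5-fold, the fold used here to call a difference, where 17.9% of 6745 genes passed it in either direction. Ctsa was 1.30-fold higher (1.24 to 1.37), Ctsd 1.22-fold (1.19 to 1.24), Ctsb 1.22-fold (1.17 to 1.26), Ctsl 1.19-fold (1.13 to 1.25) and Lgmn 1.17-fold (1.15 to 1.20). Ctsz was 1.13-fold and Ctsh 1.08-fold higher, Ctsc was 1.14-fold lower (1.05 to 1.23), and Ctss did not differ beyond counting error (0.985-fold, 0.963 to 1.01). The median log2 ratio of the 9 genes was 0.23, against -0.058 for all genes tested. Each library was a batch number of its own in this comparison, so batch and helplessness cannot be told apart.

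Against non-shocked microglia, 0 of the 9 genes passed 1.5-fold in acute helpless (29.0% of all genes tested did), acute non-helpless (27.5%), chronic non-helpless (17.4%) or chronic recovered cells (17.5%). These 4 comparisons share the non-shocked library. Ctsh was the most different in acute helpless cells, 1.25-fold higher (1.17 to 1.33), and Ctsc was 1.22-fold lower (1.13 to 1.31). In acute non-helpless cells Ctsl was 1.22-fold lower (1.16 to 1.29) and Ctsa 1.21-fold lower (1.15 to 1.28), while Ctsh was 1.16-fold higher (1.08 to 1.24). The batch 2 part of the non-shocked cells was lower than the batch 3 part for all 9 genes, with Ctsl at 946 against 1648 CPM in batch 3 and Ctss at 4626 against 5522 CPM. Set against non-shocked cells of their own batch 2, acute non-helpless microglia were higher for all 9 genes, so Ctsl (1.37-fold higher) and Ctsa (1.22-fold higher) turned direction, and Ctsh was 1.61-fold higher. Those 123 batch 2 microglia had a median of 905 UMIs, against 3676 in acute non-helpless microglia, and held 95 Ctsh UMIs. Depth was not matched, and the share of all genes past 1.5-fold was not read in this setting.

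Chronic recovered and chronic non-helpless microglia, which share a batch number, were nearly alike in these genes. Of the 9, 0 passed 1.5-fold, where 7.25% of 6774 genes did, and the ratios of recovered over non-helpless ran from 0.923 for Ctsb (0.886 to 0.961) to 1.02 for Ctss (0.991 to 1.05). For Ctsb and Ctsd (0.961, 0.941 to 0.981) the interval stayed below 1, and for the other 7 genes it included 1.

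Chronic non-recovered microglia, whose label says no more than non recovered, were set against chronic recovered microglia of the same batch number. All 9 genes were lower, and 2 passed 1.5-fold lower, where 12.3% of 7277 genes did and 27.6% of the 312 abundant genes did, those reaching 500 CPM in either library. Ctsl was 1.66-fold lower (1.46 to 1.89) and Ctsz 1.58-fold lower (1.40 to 1.78). Ctss was 1.38-fold lower (1.30 to 1.47), Ctsh 1.29-fold, Ctsc 1.27-fold, Ctsd 1.20-fold (1.15 to 1.25), Lgmn 1.17-fold, Ctsa 1.13-fold and Ctsb 1.10-fold (1.01 to 1.20). The median log2 ratio of the 9 genes was -0.35, beside -0.30 for the abundant genes, while the median of all genes tested was 0.16.

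The same 2 genes passed 1.5-fold lower in chronic non-recovered microglia against chronic non-helpless cells, where 12.3% of all genes and 22.1% of abundant genes did, and against non-shocked cells, where 10.2% and 3.87% did. Against chronic non-helpless, Ctsl was 1.64-fold lower (1.44 to 1.86) and Ctsz 1.62-fold lower (1.44 to 1.82). Against non-shocked, Ctsl was 1.82-fold lower (1.61 to 2.07) and Ctsz 1.58-fold lower (1.41 to 1.78). The 3 comparisons share the chronic non-recovered library, so they are not separate observations. Without the barcode rich in neutrophil UMIs and the few microglia short of microglial markers, Ctsl was still 1.72-fold lower than in non-shocked, 1.58-fold lower than in recovered and 1.56-fold lower than in non-helpless cells, and Ctsz was 1.49-fold to 1.54-fold lower.

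The chronic non-recovered microglia were unlike the others in make-up. Of 99, 58 (58.6%) carried deposited cluster number 6, whose cells had a median of 0.828% of UMIs in ribosomal protein genes and 1787 UMIs, and the other 41 carried number 1. Within cluster 1, 0 of the 9 genes passed 1.5-fold against chronic non-helpless cells (Ctsz 1.40-fold and Ctsl 1.33-fold lower), and Ctsl alone passed against non-shocked cells (1.62-fold lower, 1006 against 1630 CPM). Within cluster 6, 4 passed against chronic recovered cells: Ctsc was 2.96-fold lower, Ctsh 1.95-fold, Ctsz 1.89-fold and Ctss 1.63-fold. The barcode rich in neutrophil UMIs lay in cluster 6 and held 15.0% of its microglial UMIs. Without it 3 passed, Ctsc (2.52-fold lower), Ctsh (1.74-fold) and Ctsz (1.61-fold), and Ctss was 1.38-fold lower. Limited to microglia with at least 2.5% ribosomal protein UMIs, of which chronic non-recovered had 46, Ctsl was 1.56-fold and Ctsz 1.37-fold lower than in recovered cells. That set also held the barcode, and without it 0 of the 9 genes passed against recovered or non-helpless cells (Ctsl 1.43-fold lower in both) and Ctsl alone passed against non-shocked cells (1.54-fold lower). The share of all genes past 1.5-fold was not read within a cluster or under the ribosomal limit. These counts therefore have no background beside them. In cluster 6, Ctsc rested on 26 UMIs in chronic non-recovered and 69 in chronic recovered cells. The sources used here do not say whether a cluster number marks the same population in each library.

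**Figure D2:**
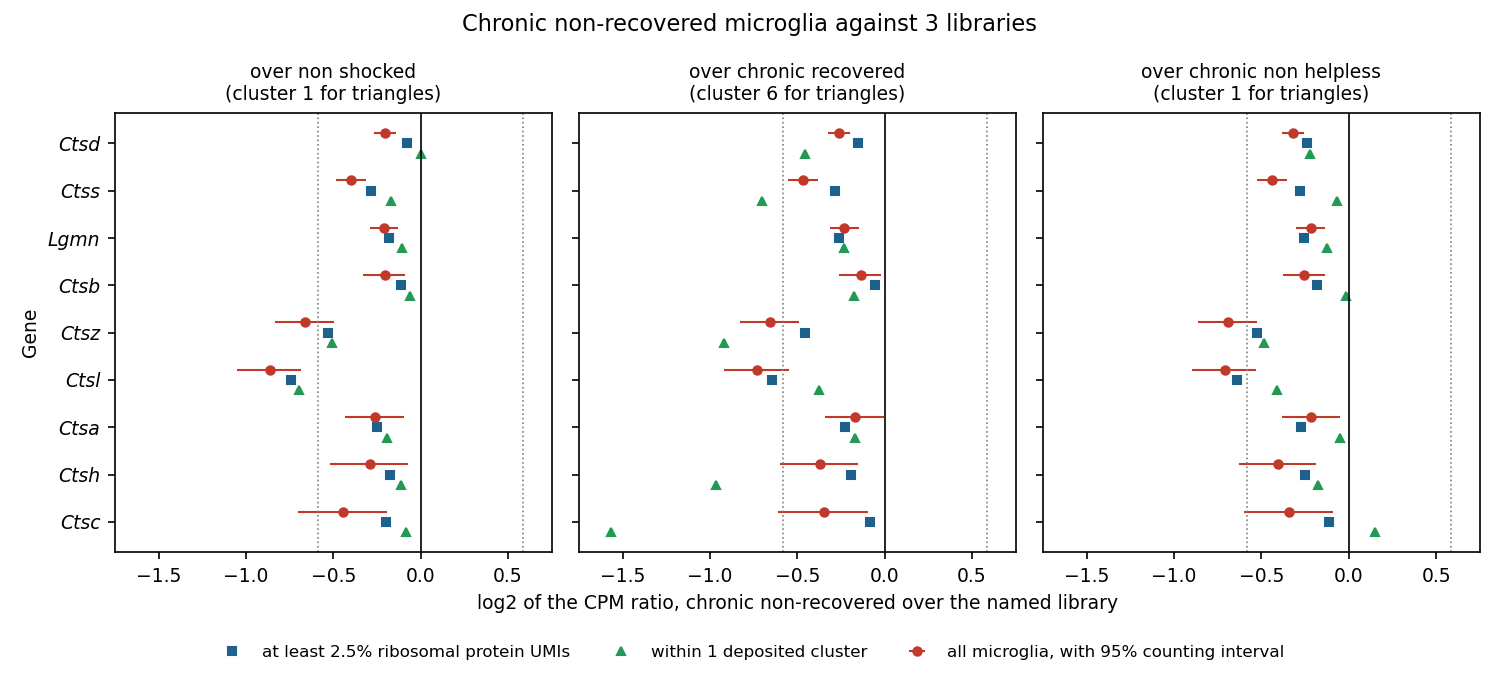
Log2 CPM ratio of each protease in chronic non-recovered microglia over 3 other libraries; circles are all microglia with 95% counting intervals, squares microglia with at least 2.5% ribosomal protein UMIs, triangles microglia of 1 deposited cluster, and dotted lines mark 1.5-fold. All circles lie left of 0 and those of Ctsl and Ctsz lie past the dotted line, while the cluster 6 triangles put Ctsc, Ctsh, Ctsz and Ctss past it; all include the barcode rich in neutrophil UMIs where it belongs to the set.

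Ribosome-poor microglia, here those with under 2.5% of UMIs in ribosomal protein genes, separated the 9 proteases. Their share was 41.1% in non-shocked, 15.9% in acute helpless, 9.31% in acute non-helpless, 15.6% in chronic non-helpless, 53.5% in chronic non-recovered and 9.41% in chronic recovered microglia, and their median depth was 1484 to 2097 UMIs against 3843 to 4725 in the other cells. Ctss was lower in ribosome-poor than in other microglia of the same library in 6 of 6 libraries, at ratios of 0.592 to 0.753, with every interval below 1. Ctsz was lower in 6 of 6 (0.578 to 0.875, every interval below 1), and Ctsh in 6 of 6 (0.625 to 0.887, 4 intervals below 1). These 3 encode an endopeptidase, a carboxypeptidase and an aminopeptidase.

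Lgmn and Ctsa had ratios above 1 in most libraries. Lgmn was higher in ribosome-poor cells in 5 of 6 libraries, 3 of them with intervals above 1, and lower in acute non-helpless (0.896, 0.808 to 0.991). In non-shocked microglia, which held most ribosome-poor cells (227), Lgmn stood at 6092 CPM in them and 5079 CPM in the others, a ratio of 1.20 (1.15 to 1.25). Ctsa was higher in 5 of 6, with 1 interval above 1, in non-shocked cells (1.22, 1.11 to 1.33). Ctsl was lower in 5 of 6, 3 of them with intervals below 1, and 1.06 in non-shocked cells. Ctsd, Ctsb and Ctsc were mixed, with Ctsd at ratios from 0.742 in chronic non-helpless to 1.06 in non-shocked cells. Without the barcodes rich in neutrophil UMIs, the numbers of libraries on each side of 1 were the same for all 9 genes, but in chronic non-recovered cells Lgmn was at 1.00 (0.894 to 1.12) in place of 1.09 and Ctsa at 1.04 in place of 1.14. Depth and the share of ribosomal UMIs moved together here, and their parts in these ratios were not tested.

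**Figure D3:**
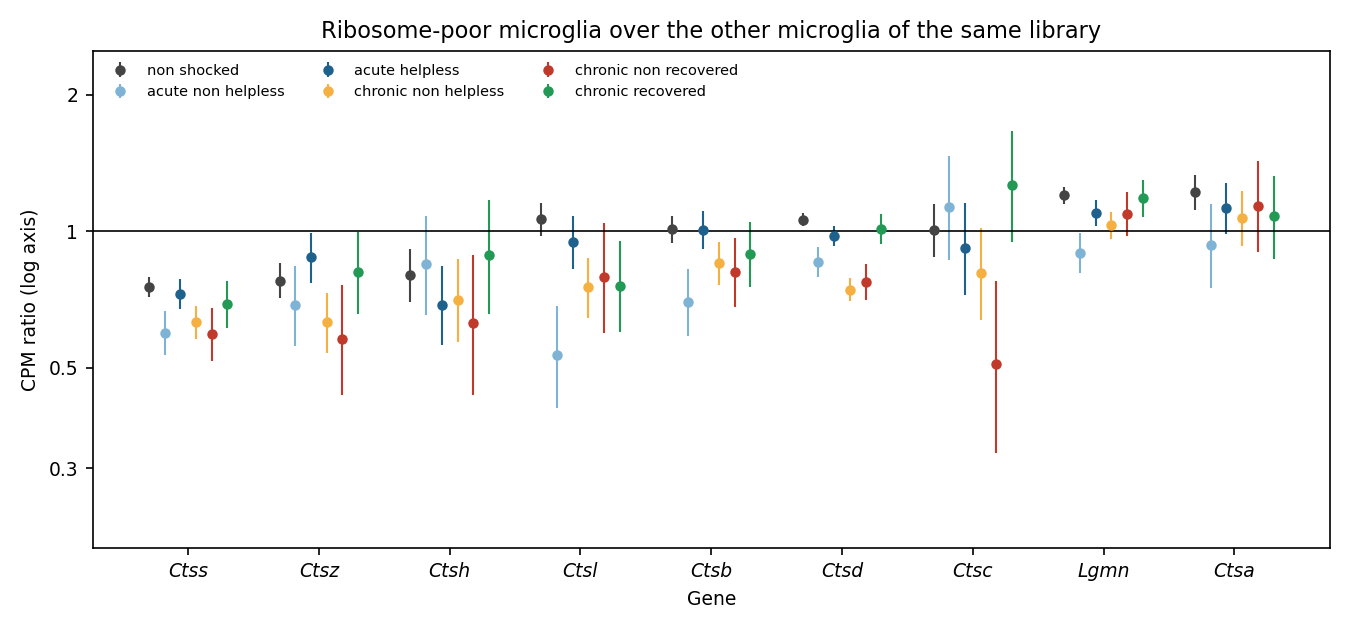
Ratio of CPM in ribosome-poor over other microglia of the same library for each protease, on a log axis with 95% counting intervals; the line at 1 is equality. All 6 points of Ctss, Ctsz and Ctsh lie below 1, and 5 of 6 points of Lgmn and of Ctsa lie above it.

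Levels also differed between deposited clusters. In cluster 5, found in acute non-helpless (121 microglia) and chronic non-helpless (96 microglia) cells with high ribosomal content (medians 8.13% and 6.67%), Ctsb was 1.49-fold (1.39 to 1.60) and 1.48-fold (1.37 to 1.60) above cluster 1 of the same library. Ctsc was 1.53-fold (1.33 to 1.76) and 1.42-fold (1.21 to 1.68) above it, and Ctss 1.48-fold (1.42 to 1.55) and 1.18-fold (1.12 to 1.25). Ctsd was at 0.920 and 0.845 of cluster 1, and Lgmn at 0.972 (0.920 to 1.03) and 0.959 (0.904 to 1.02). Ctsz was 1.27-fold (1.16 to 1.38) and 1.18-fold (1.07 to 1.30) above it, and Ctsa 1.20-fold (1.08 to 1.34) and 1.13-fold (1.00 to 1.28). Against cluster 1, cells of cluster 5 thus had higher CPM of Ctsb, Ctsc, Ctss, Ctsz and Ctsa in both libraries. Ctsd was lower and Lgmn within counting error. Against cluster 2 of the same library, Ctsb, Ctsc, Ctss and Ctsz were also higher and Ctsd lower in both. Ctsa did not differ from cluster 2 beyond counting error (1.09, 0.967 to 1.23, and 0.999, 0.897 to 1.11). Lgmn was lower than in cluster 2 (0.887, 0.836 to 0.942, and 0.918, 0.870 to 0.969).

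Cluster 3, with median ribosomal content of 0.841 to 1.31% in 4 libraries, was below cluster 1 for Ctss in each of them. Ctss stood there at 4055 CPM in non-shocked, 5193 in acute helpless, 4047 in acute non-helpless and at 3314 in chronic non-helpless microglia, against 5819, 5661, 5433 and 5441 CPM in cluster 1. Lgmn in cluster 3 was 6209, 5845, 3723 and 4783 CPM, above cluster 1 of the same library in non-shocked cells (1.18-fold, 1.12 to 1.24), below it in acute and chronic non-helpless cells, and within counting error in acute helpless cells. The number of Ctss UMIs per Ctsd UMI was 0.428 (0.370 to 0.494) in chronic non-recovered cluster 6 and 0.440 in non-shocked cluster 3, and reached 1.00 (0.952 to 1.05) in acute non-helpless cluster 5 and 1.14 (0.989 to 1.31) in non-shocked cluster 4 (38 microglia). Clusters were made from these expression values, so the differences between them are descriptions.

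**Figure D4:**
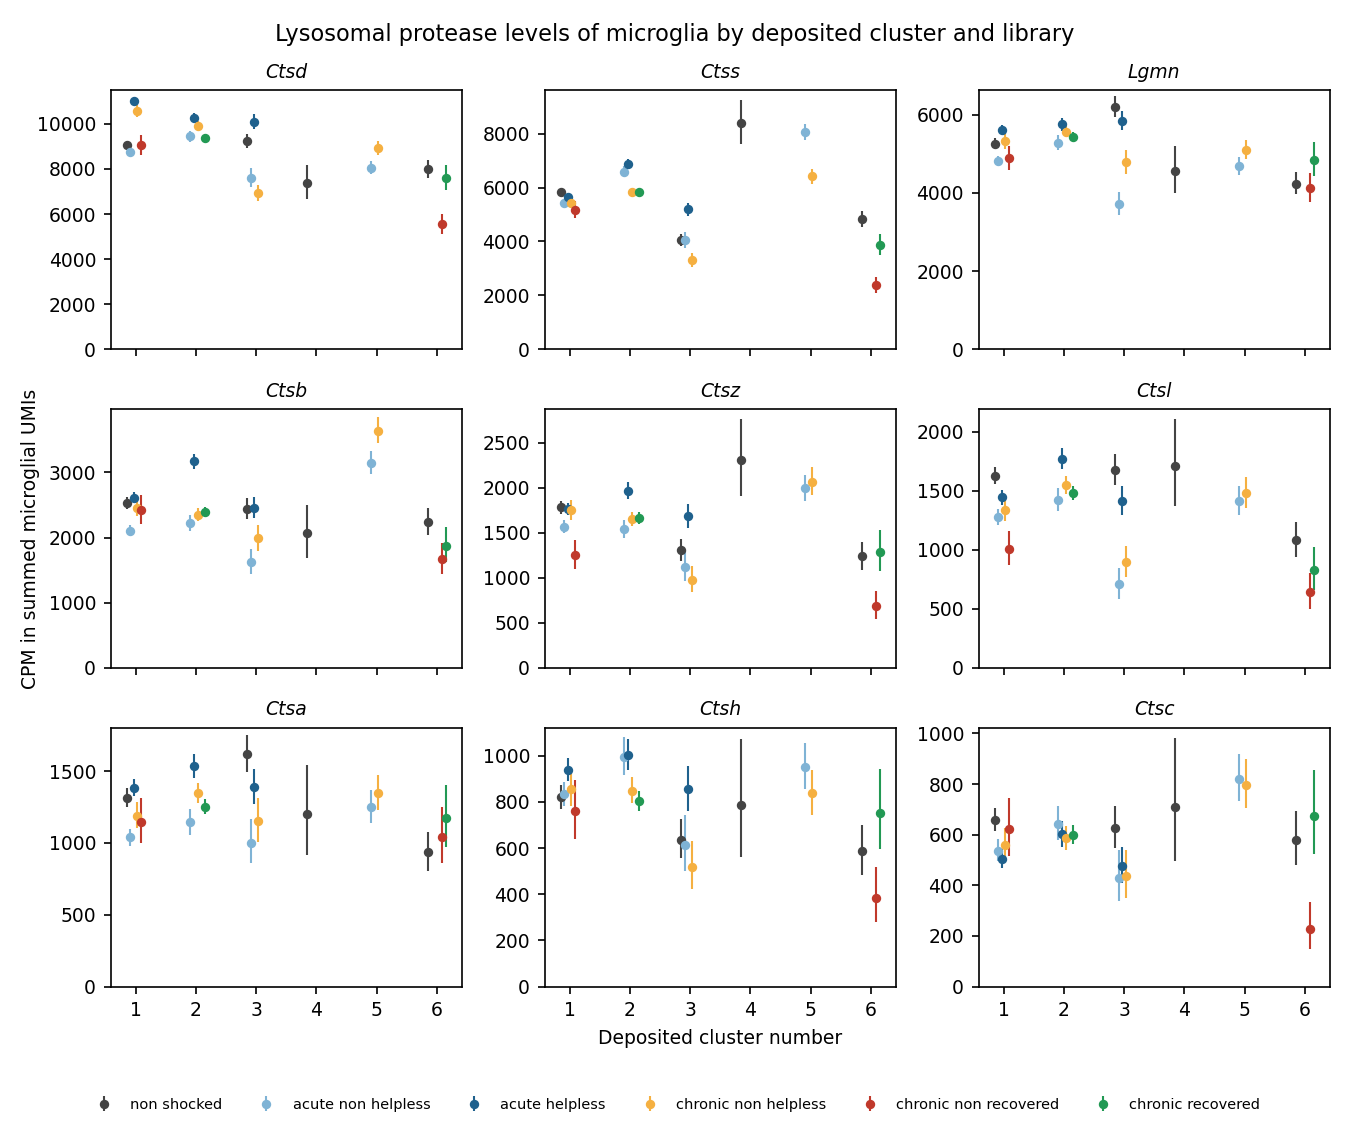
CPM of each protease in microglia by deposited cluster number (pools of at least 20 cells), coloured by library, with 95% counting intervals and axes from 0. Ctss, Ctsb and Ctsc stand high in cluster 5 and Ctss low in clusters 3 and 6, and non-shocked cluster 4 (8406 CPM) is the highest Ctss point.

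Across 19 pools of microglia (library by cluster), log2 levels with 10 CPM added gave a Pearson r of 0.94 for Ctss with Ctsz, 0.86 for Ctss with Ctsh and 0.88 for Ctsh with Ctsz. Ctsa with Lgmn gave 0.86, and Ctsd with Lgmn 0.76. It was 0.33 for Ctss with Lgmn and 0.32 for Ctss with Ctsa. Ctsd fell with neither set alone, since it gave 0.81 with Ctsh and 0.58 with Ctss and with Ctsa. Without the barcodes rich in neutrophil UMIs, Ctss with Ctsz gave 0.93 and Ctsa with Lgmn 0.84, while Ctss gave 0.15 with Lgmn and 0.13 with Ctsa. The pools share libraries and differ in depth, so these values are descriptions, without a test. Of the genes with a printed CACGTG match, Ctsl gave 0.80 with Ctss, which had no match, and 0.75 with Lgmn, which had one. Pairs with a match in both genes ran from 0.58 for Ctsd with Ctsa to 0.86 for Ctsa with Lgmn. Pairs among Ctss, Ctsz and Ctsc, whose windows had no match, ran from 0.79 for Ctsc with Ctsz to 0.94 for Ctss with Ctsz. Without the barcodes rich in neutrophil UMIs, Ctsl gave 0.77 with Ctss and 0.65 with Lgmn, and Ctsd gave 0.45 with Ctsa. Pairs among Ctss, Ctsz and Ctsc then ran from 0.75 to 0.93.

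Over 20 pools of all cells, among 1567 genes with a mean of at least 100 CPM, the genes most like each protease were named by their correlation. C1qb and C1qc, subunits of complement C1q, and Cst3, the cathepsin inhibitor cystatin C, were nearest to Ctss (r of 0.97 each) and to Ctsh (0.99, 0.99 and 0.97), and C1qb (0.97), Bsg (0.96) and C1qc (0.96) to Ctsz. Tmem119, Sparc and Selplg were nearest to Ctsd (0.98, 0.98 and 0.97), and Sparc, Fcrls and Grn to Lgmn (0.98, 0.97 and 0.97). Tpp1, a lysosomal tripeptidyl peptidase, Pld4 and Grn, the gene of progranulin, were nearest to Ctsa (0.97, 0.96 and 0.96), and Cd68, a lysosomal membrane protein, Asah1, an acid ceramidase, and Pmp22 to Ctsb (0.95, 0.94 and 0.92). Ugt1a7c and Olfml3 were among the 3 nearest to Ctsl (0.95 each), and Ly86, Tmed10 and Cd9 to Ctsc (0.92, 0.91 and 0.91). These pools hold every cell type of a cluster, and the share of microglia differs between them.

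Other deposited cell types first have to be read beside microglial RNA. Of 161 barcodes labelled T cells, 118 had at least 0.5% of their UMIs in the 9 microglial markers, as had 20 of 39 labelled NK cells, 27 of 42 labelled monocytes, 10 of 25 labelled macrophages and 0 of 17 labelled B cells. With all barcodes, T cells showed 3989 CPM of Ctss, 5770 of Ctsd and 3081 of Lgmn. Without the mixed barcodes, 43 T cells showed 110 CPM of Ctss (72.8 to 161), 470 of Ctsd (388 to 565) and 32.7 of Lgmn (14.1 to 64.5). The 0.5% limit also removes macrophages that express these markers, so the remaining myeloid cells are a selected set. Below the limit the microglial markers still summed to 344 CPM in T, 214 in NK and 283 in B cells. In barcodes labelled monocytes and macrophages they summed to 524 and 861 CPM, beside 42291.5 CPM in microglia. What part of the levels below came with microglial RNA was not tested.

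The marker lists were read in both myeloid labels once mixed barcodes were left out, and the label of macrophages went against them. The 15 remaining barcodes labelled macrophages had B cell markers at 7775 CPM and other-macrophage markers at 317 CPM, and 10 of the 15 had Cd79a, a chain of the B cell receptor complex. The 15 remaining barcodes labelled monocytes had neutrophil markers at 95538 CPM and monocyte markers at 5894 CPM, with S100a9 in 3 and S100a8 in 4 of them. Among the monocyte markers, Ccr2 was found in 8, Plac8 in 7, Ly6c2 in 6 and Chil3 in 6 of these 15, and 12 of the 15 had fewer than 20 neutrophil UMIs. Both sets are called here by their deposited labels.

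In T and NK cells without mixed barcodes, Ctsd was the highest of the 9 proteases. The 19 NK cells had 1285 CPM of Ctsd (1060 to 1544), found in 19 of 19 cells, against 45.1 CPM of Ctsz, 56.4 of Ctss and 33.8 of Lgmn. Ctsh had 0 UMIs of 88713 in these NK cells, which allows up to 33.8 CPM. T cells likewise had more Ctsd than any other of the 9, with Ctsa, Ctsb, Ctsc and Ctss between 98.2 and 110 CPM, Ctsz at 69.5 CPM, and Ctsl, Lgmn and Ctsh at 36.8, 32.7 and 12.3 CPM. Ctsc, whose product activates granzymes, stood at 113 CPM in NK cells (54.1 to 207), with an interval overlapping that of T cells (62.9 to 146).

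B cells had a different order. The 17 cells held Ctss at 351 CPM (239 to 499), Ctsz at 306 (202 to 445) and Ctsh at 170 (95.1 to 280), with Ctsd at 90.7 (39.1 to 179) and Ctsl at 11.3 CPM from 1 UMI. Ctss, Ctsz and Ctsh, the 3 genes lower in ribosome-poor microglia of all 6 libraries, led in B cells, while Ctsd led in T and NK cells. Ctsl, lower in ribosome-poor microglia of 5 of 6 libraries, was not among those that led in B cells. Ctss was found in 16 of 17 B cells and Ctsl in 1 of 17.

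In barcodes labelled monocytes, Ctss led with 1443 CPM (1233 to 1679), followed by Ctsb with 988 (816 to 1186) and Ctsc with 601 (469 to 760). Leaving out the 3 of these with at least 20 neutrophil UMIs raised Ctss to 1799, Ctsb to 1221 and Ctsc to 749 CPM in 12 cells. Barcodes labelled macrophages had the same leading 3, Ctss at 1541, Ctsb at 839 and Ctsc at 612 CPM. Ctsc was the only one of the 9 genes whose interval in both labels reached the pooled microglial level (588 CPM), whereas Ctsd was at 326 and 90.7 CPM and Lgmn at 172 and 227 CPM, against 9464 and 5308 CPM in microglia.

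**Figure D5:**
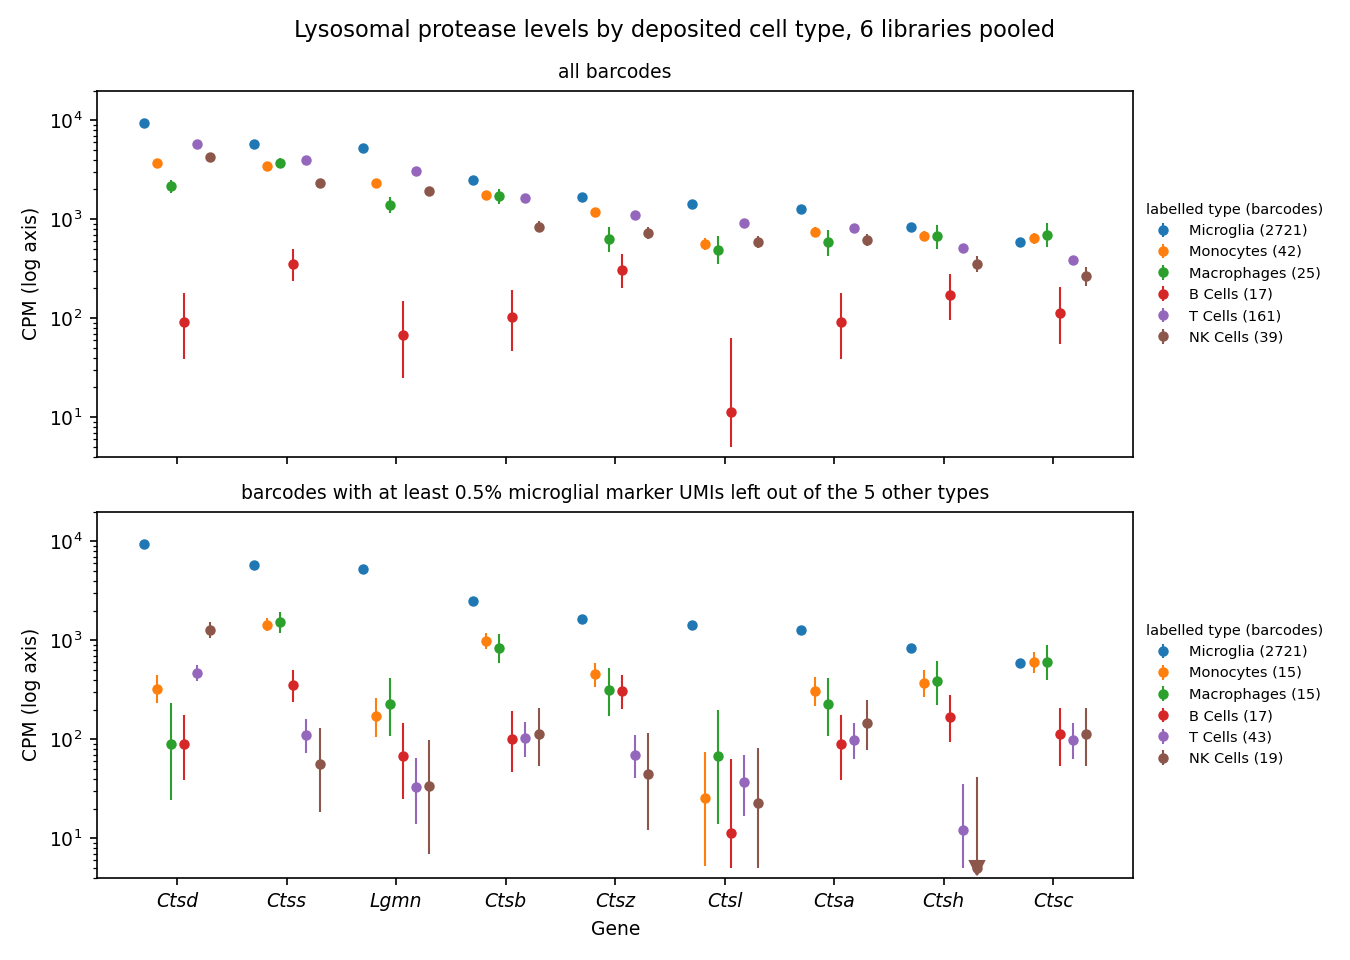
CPM of each protease by deposited cell type, libraries pooled, on log axes with 95% counting intervals, with all barcodes above and without barcodes holding at least 0.5% microglial marker UMIs below; the triangle marks Ctsh in NK cells, at 0 UMIs. Leaving out mixed barcodes lowers T, NK, monocyte and macrophage levels of most genes and brings NK Ctsd to 1285 CPM. Ctsc is then the gene with the closest levels in microglia and in barcodes labelled monocytes and macrophages. Those labelled macrophages held B cell markers at 7775 CPM and other-macrophage markers at 317 CPM.

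The rest of the lysosome was described by 8 further gene lists. In acute helpless against acute non-helpless microglia, other lysosomal proteases were higher in 6 of 7 measured, with Dpp7 1.67-fold (1.23 to 2.29) and Cpq 1.63-fold (1.09 to 2.46) past 1.5-fold, and lysosomal glycosidases and lipases in 17 of 21, with 2 past 1.5-fold, Glb1 among them at 1.82-fold (1.42 to 2.33). The list medians were 0.31 and 0.19 on the log2 scale, near the 0.23 of the 9 proteases. Subunits of the V-ATPase, the pump that acidifies the lysosome, were higher in 6 of 15 with 0 past 1.5-fold, and genes of sorting to the lysosome had 1 higher (Gga2) and 1 lower (Gga3) of 12. Cathepsin inhibitors had 0 of 2 measured past 1.5-fold. Of 7 measured transcription factors of the lysosome and their regulators, 6 had ratios below 1, and 1 passed, Tfeb (2.07-fold higher, 1.55 to 2.79), with 61.2 CPM against 29.6 CPM. Membrane genes had 3 of 15 higher, Lamp1, Tmem55b and Mcoln1. Beside these counts, 17.9% of all 6745 genes tested passed 1.5-fold in either direction in this comparison.

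Some lysosomal membrane genes spanned a wider range between libraries than the 9 proteases. Lamp1, a major glycoprotein of that membrane, was 1148 CPM in non-shocked, 1411 in acute helpless, 206 in acute non-helpless, 207 in chronic non-helpless, 908 in chronic non-recovered and 197 in chronic recovered microglia. Tmem55b, a lysosomal phosphatase, stood at 450, 461, 167, 92.4, 543 and 174 CPM in the same order. Non-shocked, acute helpless and chronic non-recovered libraries were high and the other 3 low for both genes, an order shared by none of the 9 proteases. Mcoln1 and the transcription factor gene Tfeb split the libraries in the same way. In the same order, Mcoln1 was 70.5, 52.7, 24.7, 22.5, 62.5 and 26.1 CPM, and Tfeb 49.1, 61.2, 29.6, 34.2, 85.5 and 33.0 CPM. In the batch 2 part of the non-shocked microglia Tfeb was 34.4 CPM, from 6 UMIs. Within batch number 3 Lamp1 was 1228 CPM in non-shocked and 207 CPM in chronic non-helpless microglia, and it was 908 CPM in chronic non-recovered microglia, which have the same batch number. Within batch number 2 it was lower in non-shocked microglia, at 373 CPM, beside 206 CPM in acute non-helpless microglia. Tmem55b was 453 CPM in the batch 2 part and 450 CPM in the batch 3 part of the non-shocked microglia.

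In chronic non-recovered against chronic recovered microglia, where all 9 proteases were lower, the lists went both ways. Lysosomal membrane genes had 4 of 15 past 1.5-fold higher, where 27.0% of all 7277 genes were. These were Lamp1 (4.60-fold, 3.91 to 5.41), Tmem55b (3.11-fold), Mcoln1 (2.40-fold) and Slc38a9 (1.82-fold). V-ATPase subunits had 3 of 15 past 1.5-fold lower, where 12.3% of all genes were. Those 3 were Atp6v0e at 98.7 against 180 CPM, Atp6v1d at 55.9 against 96.7 and Atp6v1f at 125 against 205 CPM. Cst3, the most abundant cathepsin inhibitor in these cells, was 34491 CPM in chronic non-recovered and 57419 CPM in recovered microglia, 0.601 of the recovered level (0.589 to 0.613). Over the other libraries Cst3 ran from 50192 to 61398 CPM, so it too was lowest in chronic non-recovered microglia. Of the 4 inhibitors measured, Cstb was also lower (14 against 124 UMIs), and Serpinb1a (17 against 3 UMIs) and Serpinb6a (7 against 26 UMIs) were higher by CPM. Serpinb1a stood at 55.9 CPM in chronic non-recovered and at 0 to 1.74 CPM in the other libraries. All list values here include the chronic non-recovered barcode rich in neutrophil UMIs and were not read without it, so its part in them was not tested. Of 7 further lysosomal proteases 1 was lower past 1.5-fold, Cpq, from 4 UMIs, and of 21 glycosidases and lipases 1 was higher and 1 lower, the latter Glb1. Sorting genes had 2 higher and 1 lower of 12, and of 7 transcription factors and regulators 1 was higher, Tfeb (2.59-fold, 1.56 to 4.19).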

How the data were processed

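The deposited raw UMI counts per gene and cell of 6 libraries were used with the authors' deposited cell type, cluster and batch labels. Sorting of live CD45-positive cells and the 5′ droplet kit are per the labels' protocols. Cell Ranger 2.2.0, Seurat 2.3.4 and build mm10 come from the submitters' processing notes. The sources used here do not say how cells were filtered, clustered, typed or batched, and the deposited normalized and merged tables were not used.

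UMI counts were summed per library and cell type or cluster and scaled to CPM (Python 3.11.15, numpy 2.4.6, scipy 1.17.1, pandas 2.3.3). CPM had exact Poisson intervals, shares Clopper-Pearson intervals and ratios exact conditional intervals. Counts under 3 in the lower library were set to 3 in log2 ratios. A difference was called at 1.5-fold. Backgrounds used genes reaching 20 CPM in either library with a UMI under both annotations, so 3932 symbols with a UMI under 1 annotation only were left out. The ratio script was tested on simulated data. Scrublet (scanpy 1.11.5) called 56 of 3005 cells doublets, 50 of them microglia, and these were kept. Shares were also read after thinning.

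All 9 genes are named. For each, the 3 genes of highest correlation are named, and of each list at most 4 genes past 1.5-fold per comparison, except items that are not reported here. Single marker genes and the levels of Lamp1, Tmem55b, Mcoln1, Tfeb and Cst3 per library were chosen after their values were seen. The members and lists were chosen with earlier results of these data known. The cluster comparisons, the marker check, the neutrophil limit and the 500 CPM background were chosen after seeing the data.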

Additional observations from a re-analysis of the deposited data

How the results depend on the processing

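No member passed 1.5-fold in 6 of the 9 comparisons under any alternative but one: with non-shocked cells of the same batch, acute non-helpless against non-shocked had 1 (Ctsh). For chronic non-recovered cells 2 members passed in each of 3 comparisons. Against non-shocked, thinning, the 2.5% ribosomal limit, the marker check and cluster 1 alone gave 1 each. Against chronic recovered, the ribosomal limit gave 1 and cluster 6 alone gave 4. With median-of-ratios size factors Ctss also passed against chronic recovered. A count of 3 in place of 2 was taken as the same and is otherwise not listed. Against chronic non-helpless, thinning and the ribosomal limit gave 1 each and cluster 1 alone gave 0. With barcodes rich in neutrophil UMIs also left out, the ribosomal limit gave 1 against non-shocked and 0 against chronic recovered and chronic non-helpless, cluster 6 gave 3, and cluster 1 still gave 1 and 0. At 2-fold the count was 0 in all 3. The restricted settings use fewer cells, and the cause of each move was not tested. No share of all genes was read under these settings, so their counts stand without a background.

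Of 81 log2 ratios, the direction differed from the main one in 11 with median-of-ratios size factors, 6 with thinning, 5 with equal cell weights, 4 with the ribosomal limit, 3 with totals without mitochondrial and ribosomal genes and 1 with the marker check, and in 0 with Scrublet doublets or cells under 1000 UMIs left out. It differed in 6 of 18 ratios within cluster 2, 3 of 27 within cluster 1 and 0 of 9 within cluster 6. With neutrophil-rich barcodes also left out, it differed in 3 of 9 within cluster 6 and 9 of 81 under the ribosomal limit. Of 36 ratios against non-shocked cells, 10 changed direction with cells of the same batch. Size factors relative to UMIs ran from 0.913 in acute helpless to 1.12 in chronic non-recovered. With them the median log2 ratio of acute non-helpless over non-shocked was 0.056 in place of -0.098. Depth limited the chronic non-recovered library most. No paired analysis was possible because each group was 1 library and replicate numbers only name a sample.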
